A study of Mus musculus with 6 samples.

Results

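The genes described here are 43 components of the AMPK and mTOR pathways, the pathways on which metformin and rapamycin act. They were taken as a fixed list of mouse symbols, chosen with earlier results of these data known. All 43 were among the 49315 genes in the deposited tables. A total of 41 passed a filter of at least 2 CPM (counts scaled to a common library depth) and at least 10 counts in at least 1 library, as did 12928 genes in all. Prkaa2 and Fnip2 did not pass it. The question was whether transcripts of the pathways themselves differed between the treatments.

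The libraries came from CD4 T cells that carry the transgenic CBir1 T-cell receptor, specific for a flagellin of gut bacteria. CD45.1 donor cells without CD44 went into C57BL/6.CD45.2 mice on day 0, and immunisation with CBir1 flagellin (50 ug) plus CT (1 ug) followed on days 1 and 7. The MEP1+Metformin+Rapamycin (combination), MEP1+Rapamycin, MEP1+Metformin and MEP1+CMC groups received 3 ug of the peptide MEP1 on days 28 and 35, each time with the inhibitors in CMC or the vehicle CMC alone for 5 days, and No treatment mice received neither. On day 56 each recipient was given a 3 ug MEP1 challenge, with splenic donor cells collected by sorting on day 63, while the last library was a naive CD4 control of the same transgenic cells. Sorting thus came weeks after the last inhibitor dose and after a further challenge. The number of mice behind each library is not given in the sources used here.

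AMPK, a kinase built of a catalytic, a scaffold and a nucleotide-binding subunit, becomes active when cellular energy is low, and metformin raises its activity by lowering mitochondrial ATP production. mTOR is a kinase that drives growth and protein synthesis as complex 1, which senses amino acids at the lysosome, and phosphorylates AKT and SGK1 as complex 2. Rapamycin bound to FKBP12 inhibits complex 1, and AMPK restrains the same complex through TSC2 and raptor. In T cells both pathways are controlled largely by phosphorylation, which transcript counts do not measure.

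Each group had 1 library, with 26139000 (naive) to 60622310 (No treatment) counts, so differences between 2 libraries are log2 ratios of TMM CPM (CPM adjusted by trimmed means of M values), with exact 95% counting intervals and no replicate check. The CD4 T-cell markers summed to 6981 to 8915 TMM CPM in the 6 libraries. Of 17 macrophage, monocyte and dendritic cell markers, the summed level was 683 to 1012 TMM CPM in the 4 MEP1 libraries, 4183 in No treatment and 256 in the naive control, where Marco and Siglech were at 0. NK-cell markers summed to 164 TMM CPM in MEP1+CMC, 50.1 to 71.8 in the inhibitor libraries, 42.4 in No treatment and 53.9 in the naive control. Erythroid and platelet markers summed to 356, 56.1 to 104, 1622 and 386 in that order. The part of these cells in comparisons with MEP1+CMC was not tested. Xist was at 0.218 to 0.532 TMM CPM and 4 Y-linked genes at 27.0 to 95.9 in the inhibitor libraries, against 257 and at most 0.301 in MEP1+CMC, so the sex of the cells and the inhibitors cannot be told apart in comparisons with MEP1+CMC. No treatment held both, with Xist at 23.0 and the Y-linked genes at 8.05 to 34.2 TMM CPM. In the naive control these sex-linked genes summed to 43.3 TMM CPM, with Uty at 0. The heading of the No treatment count column names no challenge, while the label of that library has one, and the label was followed. Loci resembling ribosomal RNA took 1.00% to 3.13% of the counts of the transferred libraries and 15.4% of the naive library.

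The pathway genes called most firmly were the kinase genes Akt1 and Akt2: Akt1 was several-fold higher and Akt2 lower in all 5 transferred libraries than in the naive library. Among the MEP1 libraries most pathway genes lay close together, and 1 gene, Deptor, passed a 2-fold difference between any inhibitor library and MEP1+CMC. In bulk samples a lower level in fewer cells and a lower level per cell cannot be told apart.

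**Figure D1:**
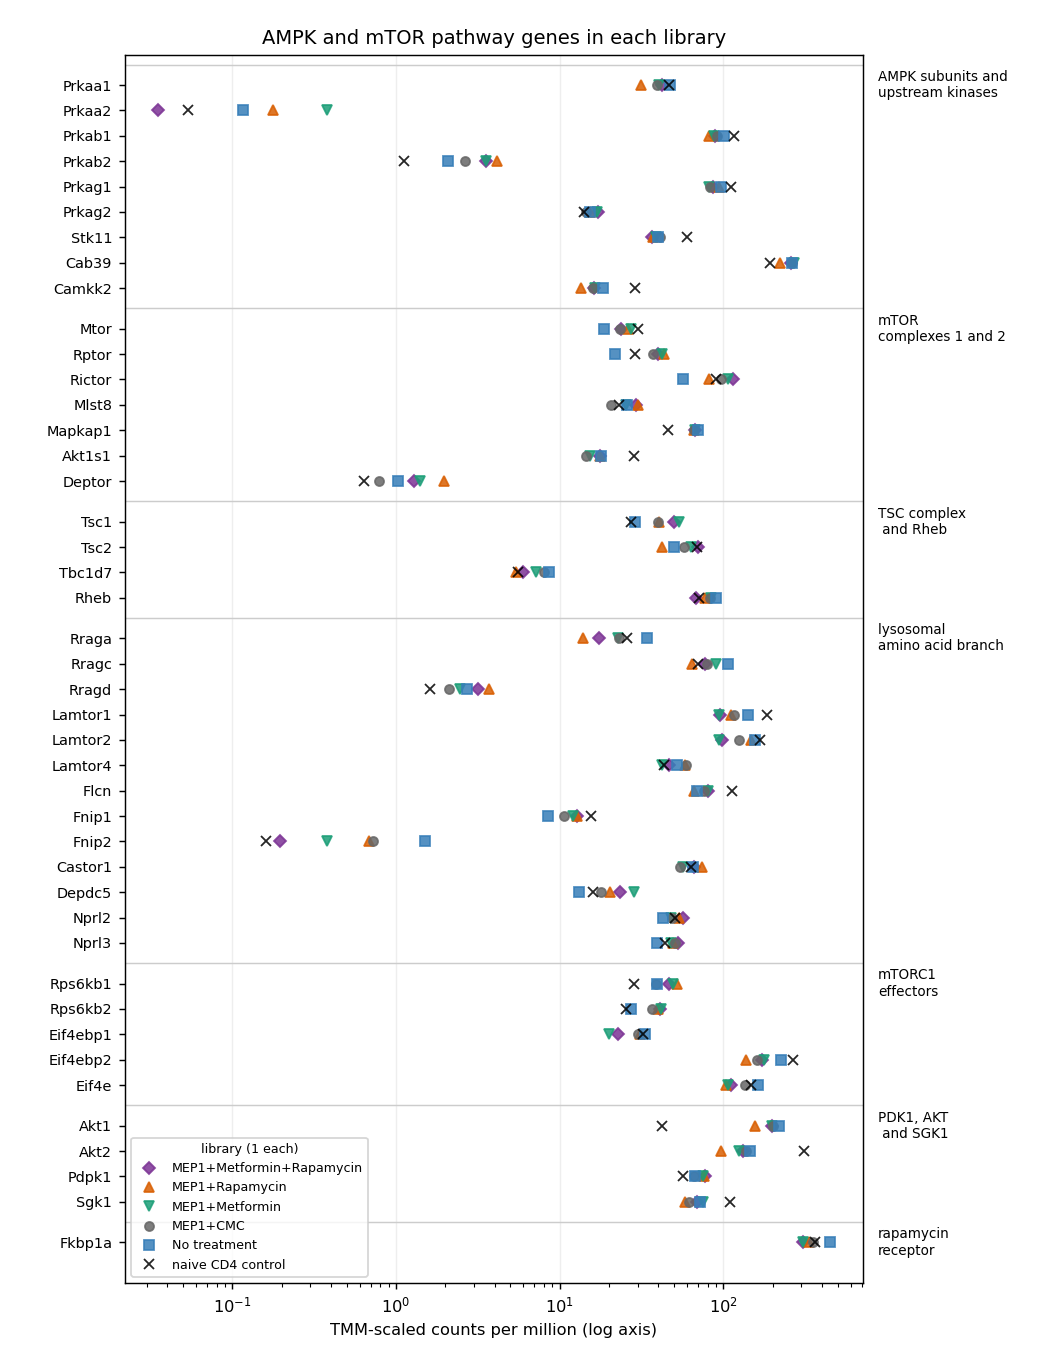
TMM CPM (log axis) of the 43 pathway genes by role, with 1 point per library. Prkaa2 in MEP1+CMC had 0 counts and has no point. Most rows span a narrow range, and the naive library (crosses) stands apart for Akt1, at 42.4, and Akt2, at 310.

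The AMPK subunits gave nearly the same composition in every library. Per kilobase of exon, the catalytic subunit alpha 1 gene Prkaa1 supplied at least 99.46% of the alpha total, the scaffold subunit gene Prkab1 97.02% to 99.42% of the beta total and the nucleotide-binding subunit gene Prkag1 95.07% to 96.89% of the gamma total. Prkaa1 was at 42.2 TMM CPM in the combination, 31.4 in MEP1+Rapamycin, 40.6 in MEP1+Metformin, 39.5 in MEP1+CMC, 47.4 in No treatment and 46.8 in the naive control. Its partner Prkaa2 had 2, 6, 19, 0, 7 and 1 counts in the same libraries. The highest Prkaa1 level was thus in No treatment and the lowest in MEP1+Rapamycin, and Prkaa2 was close to the counting floor throughout.

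Prkab1 was at 88.4 TMM CPM in the combination, 81.6 in MEP1+Rapamycin, 87.8 in MEP1+Metformin, 91.8 in MEP1+CMC, 101 in No treatment and 116 in the naive control. Prkab2, the alternative beta subunit, was at 3.53, 4.16, 3.53, 2.63, 2.08 and 1.12 TMM CPM in those libraries. Prkab2 was therefore higher in every transferred library than in the naive one, where it rested on 21 counts, and its log2 ratio was 0.66 (0.33 to 1.00) in MEP1+Rapamycin against MEP1+CMC. The difference of Prkab2 from the naive library did not pass the test of the 5 transferred libraries against it (log2 fold change 1.5, SE 0.59, adjusted p = 0.104, edgeR quasi-likelihood).

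Prkag1 was at 86.4 TMM CPM in the combination, 93.5 in MEP1+Rapamycin, 82.0 in MEP1+Metformin, 82.4 in MEP1+CMC, 96.8 in No treatment and 111 in the naive control, but 44.6% of its exon bases are shared with the antisense gene B130046B21Rik. Prkag2 was at 17.1, 15.4, 16.8, 14.5, 15.3 and 14.1 TMM CPM in the same libraries, the lowest being the naive one. No AMPK subunit that passed the filter differed by 1.5-fold between the metformin or combination library and MEP1+CMC. Of all genes 15.1% and 16.3% did, so a group this small says little. The log2 ratios of the 8 genes of this group lay between -0.08 and 0.43 in MEP1+Metformin and between -0.16 and 0.43 in the combination.

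Of the kinases upstream of AMPK, Stk11 (LKB1) was at 36.8 TMM CPM in the combination, 37.4 in MEP1+Rapamycin, 38.8 in MEP1+Metformin, 41.1 in MEP1+CMC, 40.0 in No treatment and 59.9 in the naive control. Camkk2, which activates AMPK on calcium entry, was at 16.3, 13.6, 16.4, 16.0, 18.4 and 28.9 TMM CPM in the same libraries. All 5 transferred libraries lay below the naive library for both kinases. Cab39 (MO25), a partner that holds LKB1 active, ranged from 193 TMM CPM in the naive control to 271 in MEP1+Metformin.

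Among the mTOR complexes, the kinase gene Mtor was at 23.7 TMM CPM in the combination, 26.0 in MEP1+Rapamycin, 27.3 in MEP1+Metformin, 23.4 in MEP1+CMC, 18.5 in No treatment and 30.2 in the naive control. Rptor, whose product raptor is the scaffold of complex 1, was at 39.7, 43.6, 42.3, 37.2, 21.7 and 29.0 TMM CPM in those libraries. Rictor, the corresponding scaffold of complex 2, was at 114, 81.6, 107, 97.3, 56.8 and 90.4 TMM CPM. All 3 genes were lowest in No treatment, and for Rptor the 4 MEP1 libraries lay above both others.

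Against No treatment, MEP1+CMC had a log2 ratio of 0.77 (0.67 to 0.87) for Rptor and 0.78 (0.72 to 0.84) for Rictor, past 1.5-fold but short of 2-fold. With the 4 MEP1 libraries set against No treatment in edgeR, Rptor had a log2 fold change of 0.90 (SE 0.19, adjusted p = 0.0673) and Rictor one of 0.82 (SE 0.22, adjusted p = 0.123), so neither passed. DESeq2 called both, with adjusted p = 0.00050 for Rptor and 0.0154 for Rictor, and without the MEP1+Rapamycin library edgeR gave 0.0499 and 0.0460. DESeq2 called far more genes of any kind than edgeR in that model. Rptor and Rictor are both long, and in MEP1+CMC against No treatment longer genes had higher ratios (Spearman 0.215 across 12928 genes). With the median ratio of genes of like length removed, the log2 ratio was 0.47 for Rptor and 0.61 for Rictor. The macrophage markers were also far higher in No treatment, and the part of those cells in these ratios was not tested. Xist and the Y-linked genes differed between these libraries too, and the part of sex was not tested.

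Deptor, a protein that binds mTOR and restrains both complexes, had 73 counts in the combination, 66 in MEP1+Rapamycin, 71 in MEP1+Metformin, 47 in MEP1+CMC, 62 in No treatment and 12 in the naive control. Scaled for depth these were 1.29, 1.95, 1.41, 0.787, 1.03 and 0.641 TMM CPM. MEP1+Rapamycin was the highest library, and Deptor was the lowest in level per kilobase of the 41 genes that passed the filter. Its log2 ratio to MEP1+CMC was 1.31 (0.75 to 1.88) in MEP1+Rapamycin, 0.84 (0.29 to 1.41) in MEP1+Metformin and 0.71 (0.16 to 1.27) in the combination. No model called it, and at a filter of 10 CPM it is not tested.

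The other complex members varied less among the MEP1 libraries. Mapkap1 (SIN1), a subunit of complex 2, was at 67.0 TMM CPM in the combination, 66.5 in MEP1+Rapamycin, 67.0 in MEP1+Metformin, 66.5 in MEP1+CMC, 70.4 in No treatment and 45.7 in the naive control. The span of Mapkap1 over the MEP1 libraries was 0.01 on the log2 scale, and the naive library alone lay apart. Akt1s1 (PRAS40), an inhibitor within complex 1, was at 17.6, 17.6, 15.4, 14.5, 17.9 and 28.5 TMM CPM in the same libraries, again with the naive library apart but on the high side. Mlst8, shared by both complexes, ranged from 20.5 TMM CPM in MEP1+CMC to 30.3 in MEP1+Rapamycin, with 29.6% of its exon bases shared with Bricd5 on the other strand.

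The TSC complex switches off Rheb, the small GTPase that activates mTOR complex 1. None of the 4 genes of this group differed by 1.5-fold between an inhibitor library and MEP1+CMC. Of all genes 15.1% did in MEP1+Metformin, 25.9% in MEP1+Rapamycin and 16.3% in the combination, so 4 genes say little. Tbc1d7 fell just short in MEP1+Rapamycin, with a log2 ratio of -0.58 (-0.84 to -0.33). Tsc2, the subunit that acts on Rheb and is phosphorylated by AMPK and AKT, was at 70.0 TMM CPM in the combination, 42.4 in MEP1+Rapamycin, 63.7 in MEP1+Metformin, 57.8 in MEP1+CMC, 49.7 in No treatment and 68.8 in the naive control. The MEP1+Rapamycin library was the lowest of the 6, and the log2 ratio of Tsc2 in the combination against MEP1+Rapamycin was 0.73 (0.64 to 0.81). Tsc2 shares 9.6% of its exon bases with Pkd1 on the other strand, so reads of these genes may be mixed. Tsc1 ranged from 27.2 TMM CPM in the naive control to 53.6 in MEP1+Metformin, the third subunit gene Tbc1d7 from 5.38 in MEP1+Rapamycin to 8.55 in No treatment, and Rheb from 67.7 in the combination to 90.5 in No treatment.

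The lysosomal branch carries the amino acid signal to complex 1 through Rag GTPases, each a pair of one A or B with one C or D subunit. Rraga was at 17.3 TMM CPM in the combination, 13.9 in MEP1+Rapamycin, 22.9 in MEP1+Metformin, 22.9 in MEP1+CMC, 34.0 in No treatment and 25.8 in the naive control. The libraries given rapamycin were the lowest pair, with a log2 ratio of -0.73 (-0.88 to -0.58) in MEP1+Rapamycin against MEP1+CMC and -0.40 (-0.52 to -0.28) in the combination against MEP1+Metformin. The rapamycin term for Rraga did not pass the edgeR model (log2 fold change -0.56, SE 0.21, adjusted p = 0.601).

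Rragc was at 77.6 TMM CPM in the combination, 64.2 in MEP1+Rapamycin, 90.3 in MEP1+Metformin, 79.6 in MEP1+CMC, 107 in No treatment and 69.7 in the naive control. Rragd, its alternative, was at 3.18, 3.72, 2.46, 2.11, 2.70 and 1.60 TMM CPM in those libraries, and Rragc supplied 96.39% to 98.54% of the pair per kilobase. Rragd was highest in the libraries given rapamycin, with a log2 ratio to MEP1+CMC of 0.82 (0.45 to 1.19) in MEP1+Rapamycin and 0.59 (0.25 to 0.93) in the combination. In MEP1+Rapamycin the share of Rragc, 96.39% (exact 95% counting interval 95.71 to 96.99), was below the 98.32% (98 to 98.60) of MEP1+CMC.

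Flcn, which with its FNIP partners acts on RagC and RagD, was at 80.2 TMM CPM in the combination, 66.4 in MEP1+Rapamycin, 80.0 in MEP1+Metformin, 76.3 in MEP1+CMC, 69.2 in No treatment and 113 in the naive control. Fnip1 was at 12.7, 12.8, 12.1, 10.6, 8.53 and 15.6 TMM CPM in the same libraries, so both genes were highest in the naive one. Fnip2 had 11 counts in the combination, 23 in MEP1+Rapamycin, 19 in MEP1+Metformin, 43 in MEP1+CMC, 91 in No treatment and 3 in the naive control. No treatment was highest, MEP1+CMC next and the naive control lowest, as for the summed macrophage markers, whose part in the Fnip2 counts was not tested.

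Of the GATOR1 complex, which inactivates RagA when amino acids are scarce, Depdc5 was at 23.5 TMM CPM in the combination, 20.3 in MEP1+Rapamycin, 28.6 in MEP1+Metformin, 17.8 in MEP1+CMC, 13.1 in No treatment and 16.0 in the naive control. The log2 ratio of Depdc5 in MEP1+Metformin against MEP1+CMC was 0.68 (0.57 to 0.80), or 0.44 with the trend over gene length removed. Nprl2 and Nprl3 stayed within 42.7 to 56.8 and 39.4 to 52.7 TMM CPM over all 6 libraries. Castor1, an arginine sensor, ranged from 54.5 TMM CPM in MEP1+CMC to 73.6 in MEP1+Rapamycin.

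Lamtor1, Lamtor2 and Lamtor4 encode parts of Ragulator, which anchors the Rag GTPases to the lysosome. Lamtor2 was at 97.8 TMM CPM in the combination, 147 in MEP1+Rapamycin, 94.2 in MEP1+Metformin, 125 in MEP1+CMC, 156 in No treatment and 167 in the naive control. The libraries given metformin were the lowest pair for Lamtor2. Its transcript is short, and in MEP1+Metformin against MEP1+CMC the log2 ratio of all genes followed length (Spearman 0.334 across 12928 genes). The log2 ratio of Lamtor2 was -0.41 as measured and -0.19 with that trend removed, and the values for Lamtor4 were -0.49 and -0.27. Lamtor4 was at 42.3 TMM CPM in MEP1+Metformin, 46.7 in the combination and 43.2 in the naive control, against 52.0 to 59.3 in the other 3 libraries, so for this gene the naive library lay with the metformin libraries. Lamtor1 ranged from 94.2 TMM CPM in MEP1+Metformin to 185 in the naive control.

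Among the effectors of complex 1, Eif4ebp1, a repressor of cap-dependent translation, was at 22.8 TMM CPM in the combination, 31.0 in MEP1+Rapamycin, 20 in MEP1+Metformin, 30.0 in MEP1+CMC, 33.2 in No treatment and 32.3 in the naive control. Its paralogue Eif4ebp2 was at 173, 138, 177, 160, 226 and 266 TMM CPM in those libraries. Both libraries given metformin were below the other 4 for Eif4ebp1, and the log2 ratio in MEP1+Metformin against MEP1+CMC was -0.59 (-0.70 to -0.48), or -0.49 with the length trend removed. The metformin term for Eif4ebp1 did not pass (log2 fold change -0.52, SE 0.19, edgeR adjusted p = 0.359). Per kilobase Eif4ebp1 supplied 9.70% of the pair in the combination, 15.4% in MEP1+Rapamycin, 8.39% in MEP1+Metformin, 13.3% in MEP1+CMC, 10.7% in No treatment and 9% in the naive control, so Eif4ebp2 was the main form in all 6.

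The S6 kinases phosphorylate ribosomal protein S6 once complex 1 is active. Rps6kb1 was at 46.7 TMM CPM in the combination, 51.8 in MEP1+Rapamycin, 49.4 in MEP1+Metformin, 38.9 in MEP1+CMC, 39.1 in No treatment and 28.3 in the naive control. Rps6kb2 was at 41.2, 39.8, 41.4, 36.5, 27.2 and 25.4 TMM CPM in the same libraries, with a small exon overlap with the abundant gene Ptprcap on the other strand. The naive library was the lowest for both kinases. Eif4e, the cap-binding protein that the 4E-BPs hold back, ranged from 104 TMM CPM in MEP1+Rapamycin to 162 in No treatment.

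**Figure D2:**
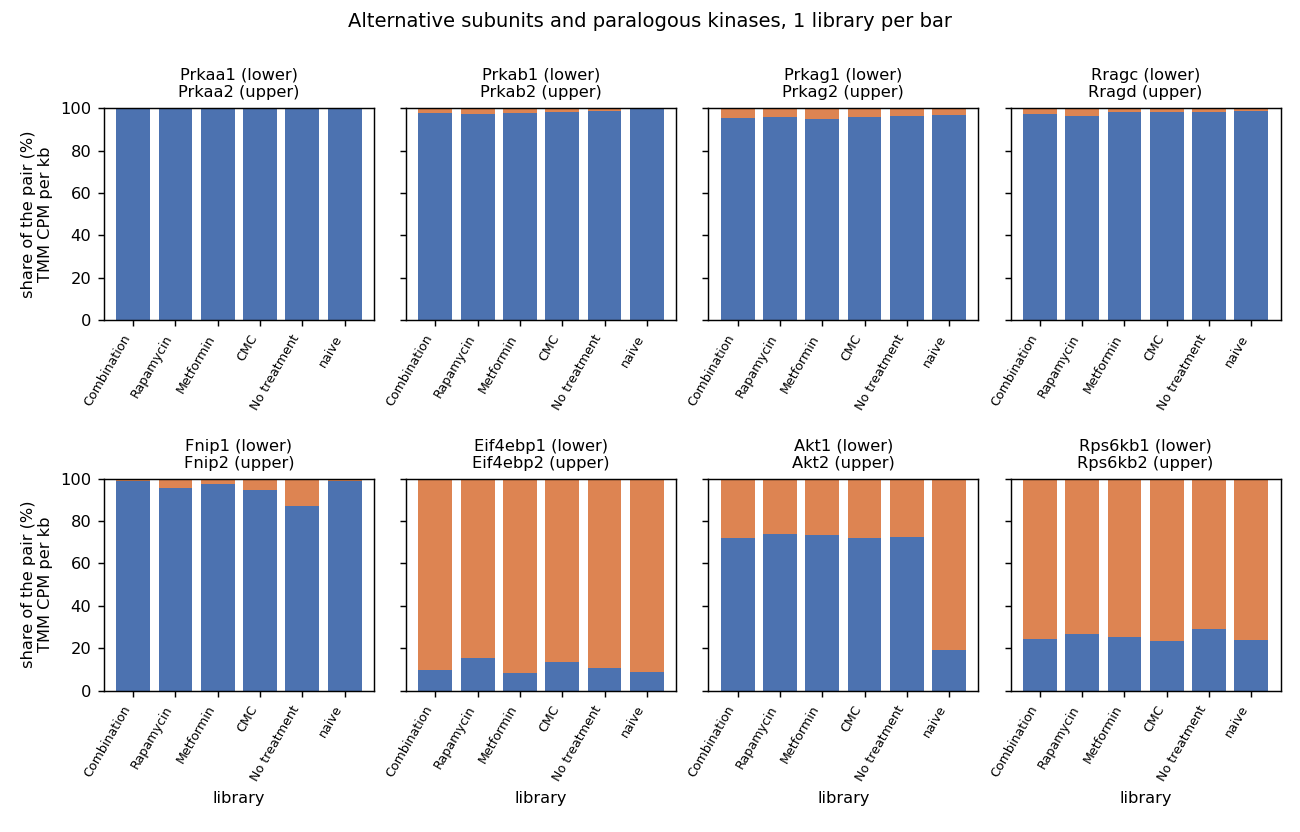
Share of each of 8 pairs of alternative genes, in percent of their summed TMM CPM per kilobase, with 1 bar per library and the inhibitor libraries on the left. The first gene of a pair is blue and the second orange. Akt1 supplied 71.88% to 73.85% of the Akt1 and Akt2 sum in the 5 transferred libraries and 19.21% in the naive control, while Prkaa1, Prkab1, Prkag1 and Rragc were the main form in all 6 libraries.

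The AKT kinases, activated by PDK1 and mTOR complex 2 downstream of PI3K, held the calls with the lowest adjusted p against the naive library. Akt1 (ENSMUSG00000001729, chromosome 12, 112653821 to 112674884 on GRCm38) was at 197 TMM CPM in the combination, 157 in MEP1+Rapamycin, 197 in MEP1+Metformin, 202 in MEP1+CMC, 218 in No treatment and 42.4 in the naive control. Akt2 (ENSMUSG00000004056, chromosome 7, 27591552 to 27640826) was at 132, 96.7, 125, 138, 144 and 310 TMM CPM in those libraries. The naive library lay far below all 5 transferred libraries for Akt1 and far above them for Akt2.

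Per kilobase the share of Akt1 in the sum of both genes was 72.2% (exact 95% counting interval 71.6 to 72.8) in the combination, 73.9% (73.0 to 74.7) in MEP1+Rapamycin, 73.2% (72.6 to 73.8) in MEP1+Metformin, 71.9% (71.3 to 72.5) in MEP1+CMC, 72.4% (71.9 to 73.0) in No treatment and 19.2% (18.1 to 20.4) in the naive control. The transferred libraries lay within a few percent of each other, although the intervals of MEP1+Rapamycin and MEP1+Metformin lay above that of MEP1+CMC, and in the naive library alone Akt2 was the main form. Since both genes are read in the same libraries, this ratio does not depend on how the libraries are scaled to each other.

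In edgeR, with the 5 transferred libraries set against the naive library, Akt1 rose (log2 fold change 2.19, SE 0.24, adjusted p = 0.00181) and Akt2 fell (log2 fold change -1.29, SE 0.21, adjusted p = 0.00635). Both calls held in all 11 alternatives, with the highest adjusted p at 0.00545 for Akt1 and 0.0405 for Akt2. The summed macrophage markers were also higher in the transferred libraries than in the naive one, at 683 to 4183 against 256 TMM CPM. The CD8 T-cell markers Cd8a and Cd8b1 summed to 3.24 to 7.24 TMM CPM in the transferred libraries and 30.1 in the naive one, with both called lower in the transferred libraries, and 10 B-cell markers to 40.1 to 114 and 139. The part of these cells, or of the sex of the cells, in the differences from the naive library was not tested. A processed copy, Akt2-ps, matches Akt2 at 98.6% identity but held 363 counts against 39831 for Akt2 over the 6 libraries. There is 1 naive library, so its differences may belong to that library and not to naive cells.

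Because these genes went opposite ways, a start region of each is shown for reference. Which starts these cells use was not tested. The regions shown are 1 of 2 RefSeq windows for Akt1 and 1 of 4 for Akt2. Each is 250 bases before to 50 bases after a start that RefSeq and a GENCODE basic protein-coding transcript share, on GRCm38.p6, 5′ to 3′ on the gene's strand, with matches to GGGCGG on either strand (a motif bound by SP1 and KLF factors) in capitals.
Akt1, chr12:112674227-112674526, minus strand: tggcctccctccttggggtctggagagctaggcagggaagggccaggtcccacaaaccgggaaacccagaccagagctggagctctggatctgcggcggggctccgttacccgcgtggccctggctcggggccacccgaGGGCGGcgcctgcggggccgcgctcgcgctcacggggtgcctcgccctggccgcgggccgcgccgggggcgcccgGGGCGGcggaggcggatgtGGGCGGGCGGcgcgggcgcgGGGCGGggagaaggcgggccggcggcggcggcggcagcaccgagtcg
Akt2, chr7:27591302-27591601, plus strand: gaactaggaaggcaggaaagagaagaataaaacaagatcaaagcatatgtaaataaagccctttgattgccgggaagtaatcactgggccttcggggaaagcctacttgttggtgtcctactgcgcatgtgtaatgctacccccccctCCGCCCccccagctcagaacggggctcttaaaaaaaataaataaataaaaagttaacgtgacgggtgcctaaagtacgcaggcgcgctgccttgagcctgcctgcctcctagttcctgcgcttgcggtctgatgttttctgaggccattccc
The Akt1 window holds 79.7% G and C, 42 CpG and 5 GGGCGG matches, of which a pair overlap, and the Akt2 window 50.0%, 12 CpG and 1 match. The median over 32851 RefSeq windows of mouse genes was 52.7% and 7 CpG, and 35.7% of them hold GGGCGG on either strand. The motif of ETS factors, CCGGAA, is found on either strand in 14.9% of windows and in neither of these. The motif of FOXO factors, GTAAACA, is found in 3.65% of windows and in neither of these. A match is a description of letters and not a measured binding site.

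Pdpk1 (PDK1) ranged from 56.4 TMM CPM in the naive control to 77.3 in the combination. Sgk1, a target of mTOR complex 2 that is also induced by salt and hormones, was at 69.3 TMM CPM in the combination, 57.9 in MEP1+Rapamycin, 75.4 in MEP1+Metformin, 61.3 in MEP1+CMC, 71.6 in No treatment and 109 in the naive control. The naive library was again the highest, and No treatment lay within the range of the MEP1 libraries.

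Fkbp1a encodes FKBP12, the protein that rapamycin binds in order to inhibit mTOR. It was at 305 TMM CPM in the combination, 333 in MEP1+Rapamycin, 308 in MEP1+Metformin, 354 in MEP1+CMC, 446 in No treatment and 361 in the naive control. The combination was the lowest of the 6 libraries, close to MEP1+Metformin, and the log2 ratio of MEP1+Rapamycin to MEP1+CMC was -0.09 (-0.12 to -0.06). No treatment was the highest library, with a log2 ratio of -0.33 (-0.36 to -0.31) in MEP1+CMC against it.

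Counted over the 41 genes, few passed a difference of at least 2-fold with an interval that excludes no change. None did in MEP1+Metformin against MEP1+CMC, where 5.88% of all genes tested passed. In MEP1+Rapamycin against MEP1+CMC 1 did, Deptor, against 11.9% of all genes. None did in the combination against MEP1+CMC (6.86% of all genes), the combination against MEP1+Metformin (3.12%), the combination against MEP1+Rapamycin (6.98%) or MEP1+CMC against No treatment (12.2%). In No treatment against the naive control 2 did, Akt1 higher with a log2 ratio of 2.36 (2.26 to 2.47) and Akt2 lower with -1.10 (-1.15 to -1.06), against 24.0% of all genes.

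At 1.5-fold the counts were 3 of 41 in MEP1+Metformin against MEP1+CMC (Deptor and Depdc5 higher, Eif4ebp1 lower; 15.1% of all genes), and 4 in MEP1+Rapamycin against MEP1+CMC (Deptor, Rragd and Prkab2 higher, Rraga lower; 25.9%). They were 2 in the combination against MEP1+CMC (Deptor and Rragd higher; 16.3%), 0 in the combination against MEP1+Metformin (8.66%), and 2 in the combination against MEP1+Rapamycin (Tsc2 higher, Deptor lower; 21.7%). They were 2 in MEP1+CMC against No treatment (Rictor and Rptor higher; 22.0%) and 14 in No treatment against the naive control (6 higher and 8 lower; 40.4%). In each of the 7 comparisons the share among the pathway genes was below that among all genes. The comparisons with MEP1+CMC share that library, so Deptor's repeated appearance rests on the same 47 counts.

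**Figure D3:**
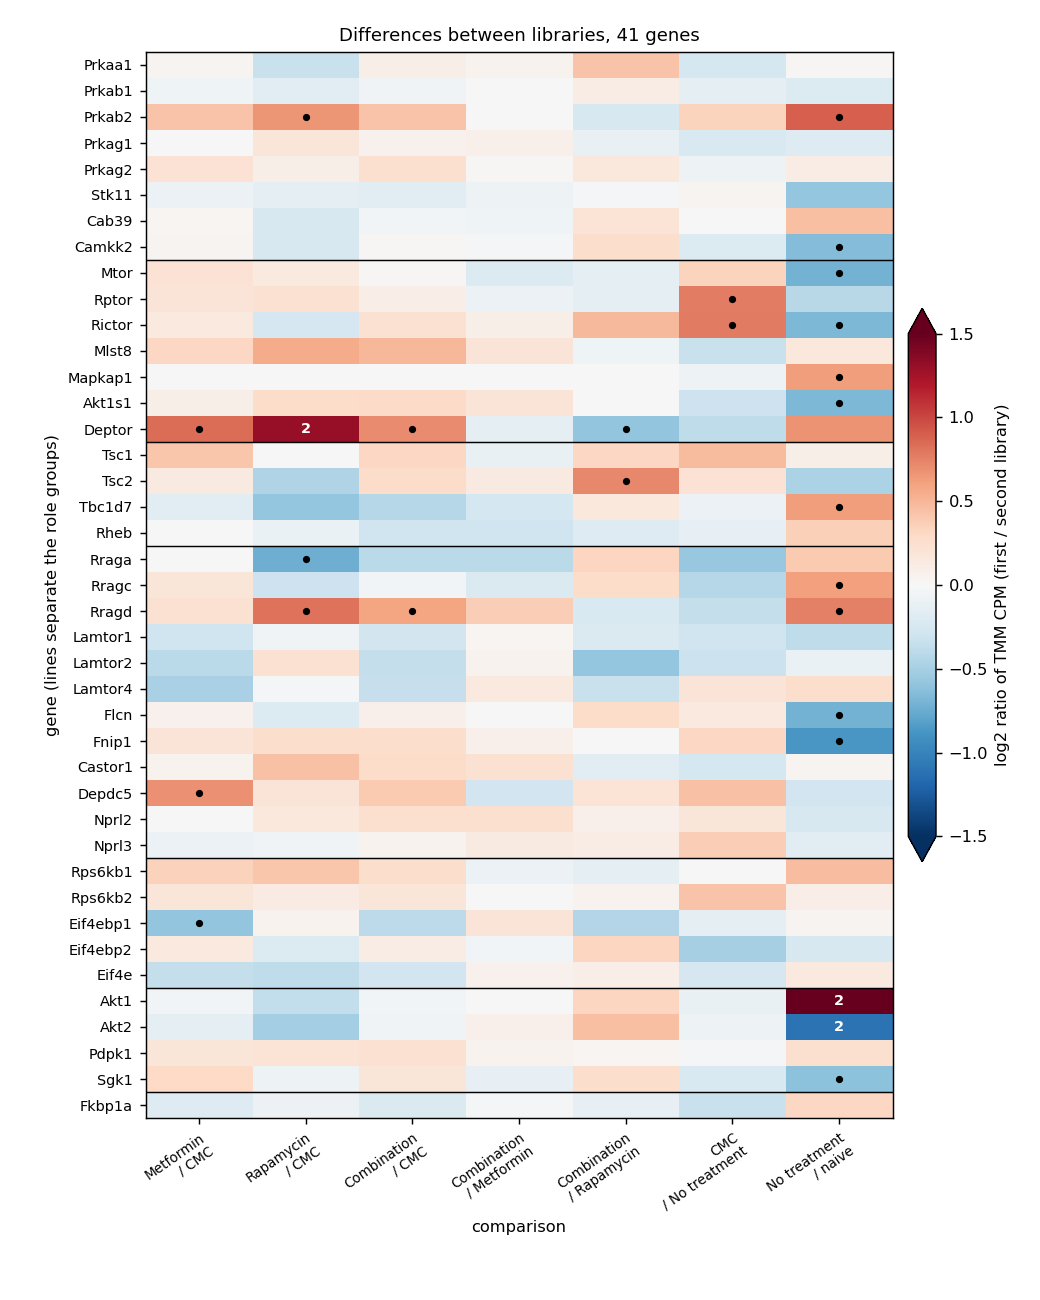
Log2 ratio of TMM CPM in 7 comparisons of 2 libraries (columns, first over second, with CMC for MEP1+CMC and Combination for MEP1+Metformin+Rapamycin) for the 41 pathway genes that passed the filter (rows, by role). A 2 marks a ratio of at least 2-fold and a dot one of at least 1.5-fold, each with a 95% counting interval that excludes no change, and colours are capped at 1.5. The column against the naive control holds 14 marks, and the column of the combination against MEP1+Metformin none.

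**Figure D4:**
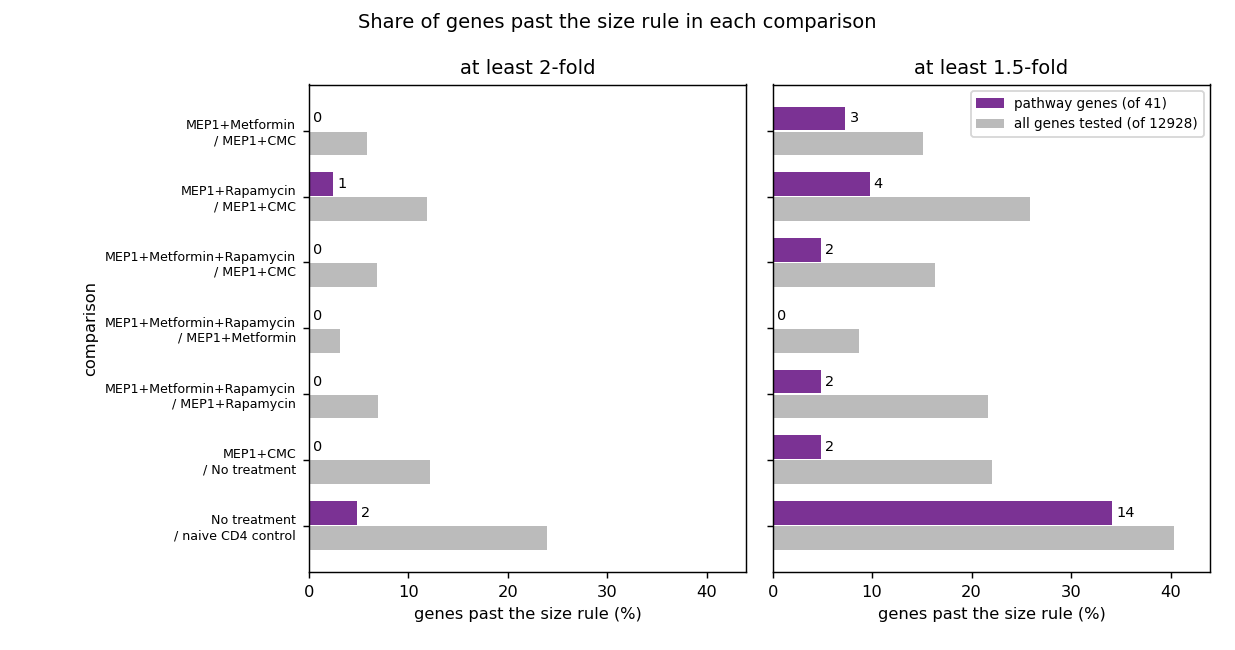
Percent of genes past 2-fold (left) or 1.5-fold (right) in each comparison, with the 41 pathway genes above all 12928 genes tested and the number of pathway genes beside each bar. The pathway bar is the shorter in every comparison at both folds, with 2 genes past 2-fold and 14 past 1.5-fold in No treatment against the naive control.

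The span of a gene over the 4 MEP1 libraries, its highest less its lowest log2 level, had a median of 0.36 for the 41 genes and 0.51 over 12927 genes. A total of 30 of the 41 genes (73.2%) and 48.3% of all genes spanned less than 0.5. With genes of at least 10 CPM alone the shares were 81.1% of 37 pathway genes and 59.8% of all genes. Over the 5 transferred libraries, with No treatment included, the median span was 0.56 for the pathway genes and 0.66 for all genes. Among genes of at least 10 CPM it was 0.55 for both, so the narrower span was not seen there. The narrowest spans were those of Mapkap1 (0.01), Nprl3 (0.14), Stk11 (0.16) and Prkab1 (0.17), and the widest those of Deptor (1.31), Rragd (0.82), Rraga (0.73) and Tsc2 (0.73).

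The model of the 5 transferred libraries against the naive library called 8 of the 41 genes, where it called 18.3% of all genes. There were 2 higher (9.96% of all genes were called higher), Akt1 and Mapkap1, and 6 lower (8.31%), Akt2, Camkk2, Akt1s1, Sgk1, Stk11 and Flcn. Beside Akt1 and Akt2, the log2 fold changes were 0.56 (SE 0.16, edgeR adjusted p = 0.0471) for Mapkap1, -0.84 (SE 0.21, 0.0321) for Camkk2 and -0.78 (SE 0.21, 0.0358) for Akt1s1. They were -0.71 (SE 0.18, adjusted p = 0.0337) for Sgk1, -0.63 (SE 0.16, 0.0315) for Stk11 and -0.60 (SE 0.17, 0.0427) for Flcn. Each of these 6 calls was lost in 5 to 7 of 11 alternatives, including without MEP1+CMC and without the combination, where 2 genes were called in all. Calls over all genes also fell without MEP1+CMC or the combination. Without MEP1+Metformin calls fell among pathway genes and all genes alike, and without No treatment both rose. Library totals put the median log2 ratio of all genes at 0.505 in No treatment against the naive control. With that scaling most calls were higher, among the pathway genes as among all genes.

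With the 4 MEP1 libraries set against No treatment, edgeR called 0 of the 41 genes and 1.25% of all genes, while 10 of the 41 had an unadjusted p below 0.05 and DESeq2 called 2, Rptor and Rictor. The metformin term of the additive model of the MEP1 libraries called 0 of 41 and 0.0928% of all genes, with 5 at an unadjusted p below 0.05 and 0 by DESeq2. The rapamycin term called 0 of 41 and 0.232% of all genes, with 2 at an unadjusted p below 0.05 and 0 by DESeq2. By edgeR these 3 models called few genes of any kind, so the lack of pathway genes among them does not show that the pathway genes were alike. The share of all genes with an unadjusted p below 0.05 was not counted, so the counts at that level have no background and show no difference of the pathway genes. Against No treatment DESeq2 called far more genes of any kind than edgeR, and a smaller share of the pathway genes than of all genes.

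The 2 by 2 layout of the MEP1 libraries also allows the ratio of rapamycin libraries to be set side by side without and with metformin. These ratios share no library, but the difference between them has no replicate check. The median absolute difference was 0.19 over the 41 genes and 0.31 over 12917 genes, and 4 of 41 (9.76%) differed by more than 1.5-fold against 26.2% of all genes. The 4 were Deptor (-1.44), Prkab2 (-0.67), Tsc2 (0.59) and Akt2 (0.59).

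For Deptor the log2 ratio was -0.13 (-0.62 to 0.36) in the combination against MEP1+Metformin and 1.31 (0.75 to 1.88) in MEP1+Rapamycin against MEP1+CMC. For Prkab2 the values were -0.00 (-0.30 to 0.30) and 0.66 (0.33 to 1.00). For Tsc2 they were 0.14 (0.07 to 0.21) and -0.45 (-0.54 to -0.36). For Tsc2 the MEP1+Rapamycin library lay below the other 3 MEP1 libraries, while for Deptor and Prkab2 MEP1+Rapamycin was the highest of the 4 and MEP1+CMC the lowest.

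**Figure D5:**
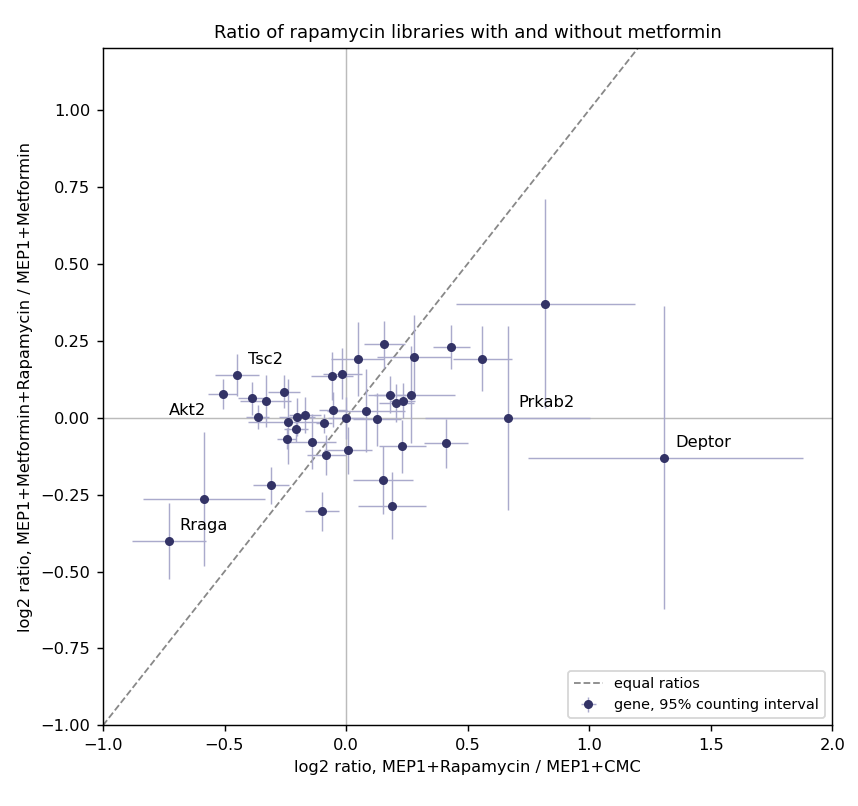
Log2 ratio of MEP1+Rapamycin to MEP1+CMC (x axis) and of MEP1+Metformin+Rapamycin to MEP1+Metformin (y axis) for the 41 genes, with 95% counting intervals and the line of equal ratios dashed. Named are the 4 genes that differ by more than 1.5-fold and Rraga. Most points spread more along the x axis, where Deptor reaches 1.31, than along the y axis, where the values stay between -0.40 and 0.37.

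Around these genes, 99 further genes of the pathways were listed, as AMPK partners and related kinases, AMPK substrates, other mTOR regulators, PI3K input, other mTORC1 effectors, amino acid transporters, other FK506-binding proteins and metformin transporters. A total of 81 passed the filter, and none of the 5 metformin transporters did. At 2-fold, 3 of 81 passed in MEP1+Metformin against MEP1+CMC (1 higher, 2 lower), 10 in MEP1+Rapamycin (6 higher, 4 lower) and 5 in the combination (3 higher, 2 lower), where 5.88%, 11.9% and 6.86% of all genes passed. These shares are near or below those of all genes, and the genes described next are single genes chosen for their size. The median log2 ratios of the 81 genes were 0.15, 0.06 and 0.06. The counts at an unadjusted p below 0.05 given next have no share of all genes to be set against. The model against the naive library called 19 of the 81, 8 higher and 11 lower, where it called 18.3% of all genes. The models of MEP1 against No treatment, metformin and rapamycin called 0 by edgeR, with 9 each at an unadjusted p below 0.05, where they called 1.25%, 0.0928% and 0.232% of all genes.

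Ddit4 (REDD1), a stress-induced gene whose product restrains mTOR complex 1 through TSC, was at 14.9 TMM CPM in the combination, 14.9 in MEP1+Rapamycin, 9.29 in MEP1+Metformin, 4.54 in MEP1+CMC, 5.18 in No treatment and 51.8 in the naive control. The 3 inhibitor libraries lay above both other transferred libraries and below the naive one, with log2 ratios to MEP1+CMC of 1.72 (1.52 to 1.92), 1.71 (1.5 to 1.93) and 1.03 (0.82 to 1.26) in the same order. Pik3ip1, a restraint on PI3K in T cells, was at 175, 175, 123, 86.6, 91.7 and 270 TMM CPM, with log2 ratios of 1.01 (0.97 to 1.06), 1.02 (0.96 to 1.07) and 0.50 (0.45 to 0.56). Txnip, an AMPK substrate that limits glucose uptake, was at 810, 628, 550, 369, 294 and 967 TMM CPM, and Sgk3 at 9.74, 10.9, 7.64, 5.11, 5.39 and 43.4. These 4 genes had the same order of groups, with the naive library highest, then the inhibitor libraries, then MEP1+CMC and No treatment. They were chosen as past 2-fold above MEP1+CMC in an inhibitor library, so part of that order follows from the choice. Of the other genes chosen so, described below, Nuak2 had this order too, while Acacb and Rhebl1 did not.

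Prr5l, a component linked to mTOR complex 2, went the other way. It was at 5.47 TMM CPM in the combination, 6.14 in MEP1+Rapamycin, 6.81 in MEP1+Metformin, 18.6 in MEP1+CMC, 6.29 in No treatment and 0.534 in the naive control. MEP1+CMC alone was high, so the log2 ratios of -1.77 (-1.96 to -1.59), -1.60 (-1.82 to -1.39) and -1.45 (-1.63 to -1.28) of the inhibitor libraries to it rest on 1 library. Lpin1, a phosphatidate phosphatase regulated by mTOR complex 1, was likewise highest in MEP1+CMC, at 72.9, 48.1, 70.1, 104, 51.2 and 54.8 TMM CPM. Fkbp10, a collagen chaperone of the FK506-binding family, had 51, 11, 30, 202, 50 and 2 counts in the same order.

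The remaining genes past 2-fold were so in MEP1+Rapamycin. Acacb (acetyl-CoA carboxylase 2) was at 0.530 TMM CPM in the combination, 2.42 in MEP1+Rapamycin, 0.695 in MEP1+Metformin, 0.770 in MEP1+CMC, 0.397 in No treatment and 0.481 in the naive control. Nuak2, an AMPK-related kinase, was at 7.75, 9.87, 5.52, 3.93, 3.42 and 12.6 TMM CPM, and Rhebl1, a relative of Rheb, at 10.9, 15.7, 9.85, 7.52, 7.01 and 12.9. Castor2 was at 7.24, 4.11, 12.4, 9.71, 10.6 and 11.6 TMM CPM, lowest in MEP1+Rapamycin. For Acacb MEP1+Rapamycin alone was high. For Castor2 the libraries given rapamycin were the lowest pair, with a log2 ratio of -0.78 (-0.96 to -0.60) in the combination against MEP1+Metformin. For Nuak2 and Rhebl1 the combination and the naive library were also above MEP1+CMC.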

How the data were processed

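The authors deposited raw counts per gene for 6 RNA-seq libraries, 1 per group. The submitters' processing notes name Subread 1.5.2 (featureCounts), STAR 2.5.2b and Trimmomatic 0.36, with GRCm38; strand setting, multimapping and annotation release are not given in the sources used here. Identifiers were matched to GENCODE M21 symbols (49056 of 49315). The pathway genes and gene lists were chosen with earlier results of these data known.

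Counts were scaled by TMM over 12928 genes with at least 2 CPM and 10 counts in 1 or more libraries. For 2 libraries, the log2 ratio has an exact 95% Clopper-Pearson interval, which covers counting error only. The 4 terms tested with edgeR 4.0.16 (R 4.3.3) by quasi-likelihood, with Benjamini-Hochberg adjustment over all genes at 0.05, were transferred libraries against naive, MEP1 libraries against No treatment, and metformin and rapamycin in an additive model. Where a side has 1 library, its variation is taken to equal that of the rest, and the spread includes treatment differences. DESeq2 1.42.0, other scalings, filters and left-out libraries were alternatives. The procedures were tested on simulated data. Exon sharing used bedtools 2.31.1 and copies blastn 2.17.0. Full values were given for genes past 2-fold or called, alternative subunits and drug targets, and for up to 12 listed further genes past 2-fold. Values in every library of Rictor, Tsc2, Rraga, Depdc5, Lamtor2 and Lamtor4 were added after they were seen.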

Additional observations from a re-analysis of the deposited data

Results flagged for a closer look

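In 3 pathway genes the log2 ratios for 1 inhibitor without and with the other had opposite signs and lay more than 1.5-fold apart. The intervals of the ratios with opposite signs excluded no change. By distance alone, 4 of the 41 pathway genes (9.76%) and 26.2% of all genes lay that far apart. How many of all genes also had opposite signs was not counted. For Deptor the difference between the log2 ratios was -1.44, with -0.13 (-0.62 to 0.36) in the combination against MEP1+Metformin and 1.31 (0.75 to 1.88) in MEP1+Rapamycin against MEP1+CMC, on 47 to 73 counts per library. Its opposite signs were those for metformin, at -0.60 (-1.10 to -0.09) in the combination against MEP1+Rapamycin and 0.84 (0.29 to 1.41) in MEP1+Metformin against MEP1+CMC. For Tsc2 it was 0.59, with 0.14 (0.07 to 0.21) in the combination against MEP1+Metformin and -0.45 (-0.54 to -0.36) in MEP1+Rapamycin against MEP1+CMC. For Akt2 it was 0.59, with 0.08 (0.03 to 0.13) in the combination against MEP1+Metformin and -0.51 (-0.57 to -0.45) in MEP1+Rapamycin against MEP1+CMC. With 1 library per group these differences were not tested, and the sex of the cells differs between MEP1+CMC and the 3 inhibitor libraries.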

How the results depend on the processing

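No paired analysis was possible because each group has 1 library. With no filter, the count of pathway genes past 2-fold was 1 in MEP1+Metformin, 2 in MEP1+Rapamycin and 1 in the combination against MEP1+CMC, 1 in the combination against MEP1+Metformin, 1 in the combination against MEP1+Rapamycin and 2 in MEP1+CMC against No treatment. The stricter filter of 10 CPM left 0 in MEP1+Rapamycin against MEP1+CMC, since Deptor is then not tested, where 5.41% of all genes passed. At 1.5-fold the counts were 3, 4 and 2 for MEP1+Metformin, MEP1+Rapamycin and the combination against MEP1+CMC, 2 for the combination against MEP1+Rapamycin, 2 for MEP1+CMC against No treatment and 14 for No treatment against the naive control. At 2-fold, scaling by library totals gave 7 in No treatment against the naive control, where TMM gave 2. The model of transferred libraries against the naive library called 8 genes, 3 with no filter, 4 with TMM factors from all genes (chosen after seeing the data) and 2 to 14 with 1 library left out. MEP1 libraries against No treatment called 0, with 2 by DESeq2, 1 with no filter and 0 to 2 with 1 library left out. In the alternatives run, no ratio past 2-fold and no model call changed sign, and smaller ratios were not checked for such a change. Of 1148 recomputed log2 ratios 809 stayed within their counting interval and 339 moved beyond it. Of 88 recomputed calls 54 held and 34 were lost. Except where stated, the cause was not tested. The share of all genes past 2-fold was not counted with no filter or with library totals, so those counts have no background. In the model against the naive library, the share of all genes called also fell with no filter and moved with a library left out. It changed little with TMM factors from all genes. For MEP1 libraries against No treatment, DESeq2 and no filter also called more of all genes. Library totals put the median log2 ratio of all genes at 0.113 in MEP1+Metformin and 0.112 in the combination against MEP1+CMC, and TMM over all genes put it at -0.128 in MEP1+Rapamycin against MEP1+CMC. Depth limits Prkaa2, Fnip2 and Deptor most.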
